A study of Mus musculus with 6 samples.

Results

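Tuft cells are rare chemosensory cells scattered through the intestinal epithelium. In 6 single-cell libraries of the mouse jejunum they were taken as the barcodes with at least 1 UMI of Dclk1 whose UMIs of Dclk1, Trpm5, Avil and Sh2d6 summed to at least 3 and to at least 0.1% of all their UMIs (a UMI is one counted RNA molecule). Of 26696 barcodes that held at least 750 genes and at most 20% mitochondrially encoded UMIs, 252 met this rule. The study asked how the epithelium responds to a high-fat diet (HFD) and to vertical sleeve gastrectomy (VSG), in which most of the stomach is removed along its greater curvature. All mice were male wildtype C57BL/6J of about 30 weeks, fed for 16 weeks before surgery and killed 5 weeks after it, following an overnight fast. LFD sham mice ate a low-fat diet (LFD) and had sham surgery, in which the stomach was only gently pressed, HFD sham mice ate the high-fat diet and had sham surgery, and HFD VSG mice ate the high-fat diet and had the gastrectomy. Each jejunum was split by a strainer into a crypt and a villus fraction, the cells of a fraction were then pooled over 3 LFD sham mice, 3 HFD sham mice or 2 HFD VSG mice, and each pooled suspension gave 1 library. Each diet or surgery group is therefore 1 pool of mice, and a difference between groups cannot be tested here.

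Tuft cells carry a tall apical bundle of microvilli. They sense luminal compounds through a cascade shared with taste buds, in which a receptor and a G protein activate a phospholipase, calcium leaves its stores through inositol trisphosphate receptors and the cation channel Trpm5 opens. In the small intestine they are best known for starting type 2 immunity: they release the cytokine interleukin-25, cysteinyl leukotrienes and acetylcholine when parasites or the metabolites of some protists are present, and the returning interleukin-13 signal raises the output of tuft and goblet cells. Pou2f3 is the transcription factor that commits a progenitor to the lineage.

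The fraction labels did not match the content of the libraries. Barcodes with at least 3% of UMIs from the enterocyte genes Apoa1, Apoa4, Fabp1 and Fabp2 made up 79.8% to 84.6% of the 3 crypt-labelled libraries and 28.4% to 59.0% of the 3 villus-labelled ones. Barcodes with at least 5% of UMIs from the Paneth genes Lyz1, Defa24, Defa30 and Defa17, which mark the crypt base, made up 0.937% to 1.497% of crypt-labelled and 1.38% to 7.56% of villus-labelled barcodes. Each library therefore keeps only its label as a name, and no position along the crypt-villus axis is read from it. Called barcodes held between 60522766 and 155522445 UMIs a library. Any pair of libraries shared 17 to 43 called barcode sequences, and 0 of the 252 tuft barcodes was a tuft barcode in another library.

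The tuft barcodes held a median of 7350 UMIs (lowest 1423, highest 81311) and 2707.5 genes. Their median UMI count by library was 5440, 4429 and 7738.5 in the crypt-labelled libraries and 7845, 6282 and 20088 in the villus-labelled ones, always in the order LFD sham, HFD sham and HFD VSG. Tuft barcodes were shallower than the remaining barcodes of their own library in 6 of 6 libraries, and those of the HFD VSG villus-labelled library were the deepest. Dclk1, the microtubule-binding kinase that is the classical tuft marker (ENSMUSG00000027797, chromosome 3, 55242364 to 55539068 in GRCm38), had a median of 13 UMIs a tuft barcode. The 4 rule genes together had a median of 34.5 UMIs (3 to 173), or 0.494% of a barcode's UMIs, and 237 of 252 barcodes had at least 10 of them.

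Inside the rule, 2 barcodes had a sum of 3 UMIs, 4 had a sum of 4, and 21 were under 0.15%, the lowest at 0.103%. Outside the rule, 34 barcodes failed by the percentage (the highest at 0.0986%), 11 for want of Dclk1 and 1 with a sum of 2, and 139 barcodes outside it held a UMI of Dclk1. In the villus-labelled HFD VSG library 10 failed by the percentage and 5 for want of Dclk1 beside 29 inside, against 5 and 1 beside 75 in HFD sham and 13 and 1 beside 74 in LFD sham. No doublet caller was run. Of the 252, 28 also met a gate for another type, 6, 2 and 7 of them in the crypt-labelled and 3, 8 and 2 in the villus-labelled libraries, mostly the enterocyte or the goblet gate.

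Tuft cells were a larger share of the villus-labelled than of the crypt-labelled library in each of the 3 groups of mice, and in the villus-labelled libraries their share was lowest after VSG. The crypt-labelled libraries held 35 of 4610 passing barcodes (0.759%, exact 95% interval 0.529% to 1.05%) in LFD sham, 13 of 3286 (0.396%, 0.211% to 0.676%) in HFD sham and 26 of 5232 (0.497%, 0.325% to 0.727%) in HFD VSG. The villus-labelled libraries held 74 of 4556 (1.62%, 1.28% to 2.03%), 75 of 4315 (1.74%, 1.37% to 2.17%) and 29 of 4697 (0.617%, 0.414% to 0.886%). All intervals here cover counting error only and not the spread between mice. The villus-labelled share was 2.14, 4.39 and 1.24 times the crypt-labelled one, and an exact two-sided permutation test over 3 pairs gave p = 0.25, which is the smallest p that 3 pairs allow. With at most 10% mitochondrial UMIs the HFD VSG pair turned, at 1.08% in the crypt-labelled and 0.682% in the villus-labelled library.

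Within the villus-labelled libraries the tuft share of HFD VSG was 0.355 times that of HFD sham (95% interval 0.223 to 0.552) and 0.380 times that of LFD sham (0.238 to 0.591), while HFD sham stood at 1.07 times LFD sham (0.766 to 1.496). Within the crypt-labelled libraries the HFD sham share was 0.521 times that of LFD sham (0.253 to 1.01) and the HFD VSG share 1.26 times that of HFD sham (0.623 to 2.66), intervals that include 1. The denominators differed: barcodes with lymphocyte genes (Cd3d, Cd3e, Cd3g and Cd7) were 2.99%, 2.62% and 1.40% of the crypt-labelled and 14.2%, 0.0927% and 12.5% of the villus-labelled libraries. Without them the tuft share was 0.783%, 0.406% and 0.485% in the crypt-labelled and 1.89%, 1.74% and 0.681% in the villus-labelled libraries, so the order of the villus-labelled conditions at the top changed and HFD VSG stayed lowest. A smaller share of barcodes can come from fewer tuft cells, from more of the other cells or from loss during dissociation, and these cannot be told apart.

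**Figure D1:**
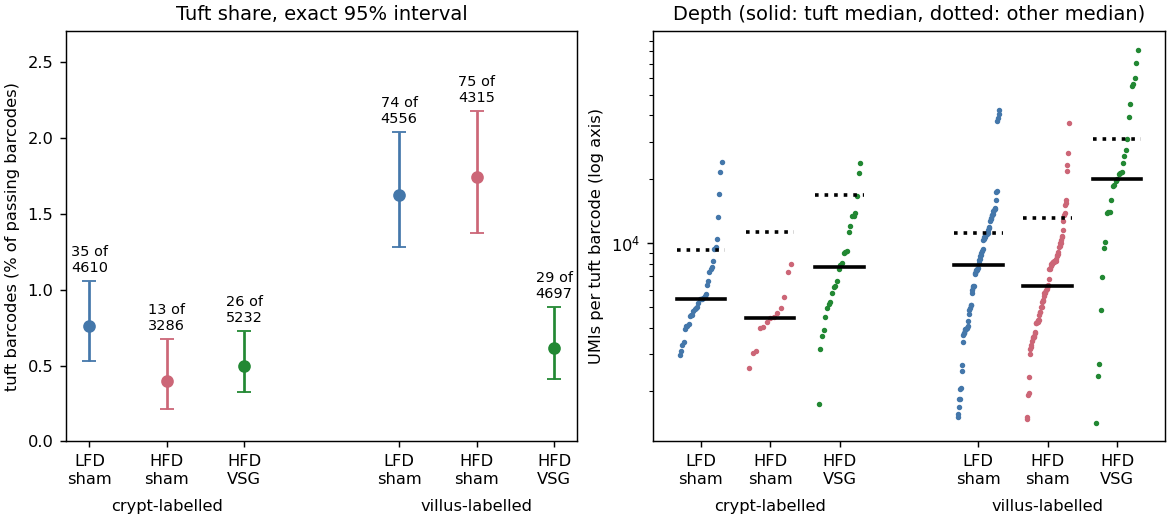
The left panel plots tuft barcodes as a percent of passing barcodes in each of the 6 libraries (points, with the exact 95% interval as bars and the counts printed above), and the right panel plots the UMIs of every tuft barcode on a log axis, with the tuft median as a solid and the median of all other barcodes as a dotted line. The LFD sham and HFD sham villus-labelled libraries stand highest at 1.62% and 1.74%, and the tuft median lies below the median of the other barcodes in all 6 libraries.

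The tuft barcodes shared a wide programme beyond the 4 genes that chose them. Summing UMIs over the tuft barcodes of a library and expressing them as CPM (counts scaled to a fixed total of those UMIs, as in every library) gave levels that were set beside the remaining passing barcodes outside the lymphocyte gate, called other epithelial barcodes. This is the contrast the rule used, so it describes the cells and was not tested. As background, 439 of 3566 genes with at least 3 tuft UMIs in every library (12.3%) were more than 2-fold higher in tuft than in other epithelial barcodes in all 6, and the median log2 ratio over those genes was 0.45. Several of the gene lists used below hold genes that the study picked from these same libraries. The filter of 3 UMIs was set on tuft barcodes alone, so members low in tuft cells drop out. The counts of list members higher in tuft cells are therefore descriptions that support nothing.

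Of 10 transcription factors, 8 had at least 3 tuft UMIs in each library, and 8 of these 8 were more than 2-fold higher in each. Pou2f3 (chromosome 9, 43123939 to 43210369) had a level of 104, 133 and 124 CPM in the crypt-labelled and 142, 142 and 86.4 CPM in the villus-labelled libraries, against 0.026 to 0.669 CPM in other epithelial barcodes. Its level lay within a narrow band across libraries, lowest in HFD VSG villus-labelled cells, and 58.3% of tuft barcodes held a UMI of it. Spib, an ETS factor also used by M cells and B cells, ranged from 217 to 414 CPM, and Hmx2, a homeobox factor, from 99.4 to 184 CPM. Gfi1b, a zinc-finger repressor, ranged from 16.7 to 38.5 CPM against at most 0.0854 CPM elsewhere. Sox9 (364 to 521 CPM) and Ehf (470 to 658 CPM), which progenitors and other epithelial cells also use, were higher in tuft barcodes by smaller median log2 ratios of 4.54 and 3.54, against 9.34 for Pou2f3 and 10.16 for Spib.

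POU factors bind an octamer that reads ATGCAAAT on one strand and ATTTGCAT on the other, so the 250 bases before each gene's start in RefSeq (GRCm38.p6) were searched for it on both strands, with overlapping matches counted once a window. It was found in 526 of 32851 windows (1.60%) and in 490 of 27025 genes (1.81%). Of 114 genes in the tuft lists 95 had a window and 9 held the octamer (9.47%). None of the 9 was among the rule genes, the transcription factors, the immune-type signalling proteins or the apical genes. A match is only a description of these letters. The 6 genes with a match and at least 100 tuft UMIs are shown with 80 bases around it, read 5′ to 3′ on the strand of the gene and with each octamer in capitals, because they include the potassium channel tetramerisation protein Kctd12, the prostaglandin D synthase Hpgds, the interleukin-4 receptor chain Il4ra and the succinate receptor Sucnr1:
Kctd12, chr14:102982754-102982833, minus strand: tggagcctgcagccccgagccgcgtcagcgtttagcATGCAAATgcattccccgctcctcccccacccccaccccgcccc
Hpgds, chr6:65144861-65144940, minus strand: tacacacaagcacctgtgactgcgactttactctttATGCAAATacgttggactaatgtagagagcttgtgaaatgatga
Ly6g6d, chr17:35081240-35081319, minus strand: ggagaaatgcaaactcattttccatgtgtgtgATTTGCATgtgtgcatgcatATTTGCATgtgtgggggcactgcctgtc
Itpr3, chr17:27057224-27057303, plus strand: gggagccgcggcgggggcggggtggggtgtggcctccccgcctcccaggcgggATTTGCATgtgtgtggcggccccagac
Il4ra, chr7:125552096-125552175, plus strand: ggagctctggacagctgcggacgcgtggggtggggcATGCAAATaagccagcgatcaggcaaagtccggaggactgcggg
Sucnr1, chr3:60081785-60081864, plus strand: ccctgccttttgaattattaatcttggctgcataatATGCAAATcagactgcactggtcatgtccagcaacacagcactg

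The levels of these 6 genes in tuft barcodes ranged from 1613 to 2514 CPM for Kctd12, from 215 to 376 CPM for Hpgds, from 66.3 to 148 CPM for Ly6g6d, from 21.3 to 104 CPM for Itpr3, from 16.6 to 59.9 CPM for Il4ra and from 26.6 to 149 CPM for Sucnr1. Itpr3 and Il4ra were also present in other epithelial barcodes, at 36.3 to 49.6 and 9.59 to 18.8 CPM. The Ly6g6d window holds 2 octamers. They begin 28 and 48 bases before the gene's start, that of Itpr3 begins 27 and that of Sucnr1 48 bases before it, and those of Il4ra, Kctd12 and Hpgds begin 139, 160 and 174 bases before it.

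The taste-like signal chain was present below its receptors, while the sweet, umami and bitter receptor genes on its list had few UMIs or none. Of 18 members, 10 had at least 3 tuft UMIs in each library, and 9 of these were more than 2-fold higher in tuft barcodes everywhere. The list summed to 2689 to 4091 CPM against 49.8 to 76.2 CPM. Rgs13, a regulator that speeds the shut-off of G proteins, had 1290, 2104 and 1950 CPM in the crypt-labelled and 1551, 1965 and 1611 CPM in the villus-labelled libraries. The phospholipase Plcb2, the inositol trisphosphate receptor Itpr2 and the G protein subunit Gng13 were at 112 to 513, 318 to 847 and 84.1 to 367 CPM. Gustducin, the taste G protein alpha subunit encoded by Gnat3, held 176 UMIs in 77 barcodes. Of the sweet and umami receptors, Tas1r3 had 25 UMIs in 23 barcodes and Tas1r1 had 1. Tas1r2 and the listed bitter receptors Tas2r108, Tas2r131 and Tas2r143 had 0 in all libraries, which allows up to 3.99 CPM in the deepest and 49.7 CPM in the shallowest tuft library (a 0 is given throughout the limit of 3 UMIs or barcodes of the total, which is lower than the upper end of the exact interval). No other bitter receptor gene was on the list, so bitter receptors as a class were not examined. The short-chain fatty acid receptor Ffar3 was at 49.7 to 89.6 CPM, and Vmn2r26, a vomeronasal receptor gene that tuft cells express, at 18.6 to 96.1 CPM.

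Genes for making leukotrienes and prostaglandins were high. Alox5ap, the protein that presents arachidonic acid to 5-lipoxygenase (chromosome 5, 149264767 to 149288153), had 529, 762 and 841 CPM in the crypt-labelled and 509, 733 and 854 CPM in the villus-labelled libraries. It was lower in LFD sham than in both HFD groups in either fraction. Alox5 (163 to 363 CPM), the leukotriene C4 synthase Ltc4s (302 to 610 CPM), the cyclooxygenase Ptgs1 (145 to 329 CPM) and Hpgds followed the same cell type pattern. Ptgs2, the inducible cyclooxygenase, had 10 UMIs in all, and the prostaglandin E synthase Ptges had 0. Lta4h, which makes leukotriene B4, and Mgst2 were lower in tuft than in other epithelial barcodes, with median log2 ratios of -0.96 and -1.04.

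Interleukin-25 transcripts were sparse. Il25 (chromosome 14, 54932695 to 54935837) had 33 UMIs in 26 of 252 barcodes, at 20.02, 16.6 and 34.1 CPM in the crypt-labelled and 8.36, 5.07 and 13.3 CPM in the villus-labelled libraries, against at most 0.0285 CPM in other epithelial barcodes. With each barcode thinned to 2000 UMIs, 4.80%, 1.92% and 6.76% of crypt-labelled and 1.93%, 1.40% and 4.51% of villus-labelled tuft barcodes held a UMI of it, whereas enterocyte-gate barcodes were at or near 0 before thinning (at most 0.0393%). Shares with a UMI are detection at this depth and not shares of expressing cells. Of the receptor side, Il13ra1 was at 232 to 446 CPM and Il17rb, a chain of the interleukin-25 receptor, at 34.5 to 180 CPM. Of the other alarmins, Tslp had 10 UMIs and Il33 had 8, and Il33 was lower than in other epithelial barcodes.

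The acetylcholine and neuron-linked genes were, the rule genes aside, the tuft list with the least signal outside tuft cells (976 to 2053 CPM against 6.66 to 20.4 CPM). Chat, which makes acetylcholine, had 144, 66.3 and 141 CPM in the crypt-labelled and 89.2, 117 and 49.2 CPM in the villus-labelled libraries. The choline transporter Slc5a7 had 0 UMIs and the vesicular acetylcholine transporter Slc18a3 had 2 over all tuft barcodes. Nrgn, a calmodulin-binding protein of neurons, and Basp1 were at 241 to 1131 and 181 to 408 CPM.

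Of 16 immune-type signalling proteins, 15 had enough tuft UMIs, and 15 of these 15 were more than 2-fold higher in each library. The list summed to 5221 to 9308 CPM in tuft and 115 to 151 CPM in other epithelial barcodes. The adaptor Fyb had 1534, 1789 and 1515 CPM in the crypt-labelled and 1384, 1551 and 905 CPM in the villus-labelled libraries, lowest in villus-labelled HFD VSG cells, and the phosphatase Ptpn18 ranged from 624 to 1237 CPM. Markers of blood cells were low. Of the 9 myeloid and mast cell markers 5 were at 0 in every library, among them C1qa and Csf1r, and Kit alone gave the list its level (136 to 243 CPM). Of the 6 stromal markers 5 were at 0, and of the 6 B and plasma cell markers 3. The lymphocyte markers summed to 0 to 580 CPM, and 2 of the 252 barcodes, 1 in each HFD VSG library, held at least 10 of their UMIs.

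Among the apical and surface proteins, Krt18, a simple-epithelial keratin dense in tuft cells, had 6632, 6708 and 8300 CPM in the crypt-labelled and 3839, 4981 and 5003 CPM in the villus-labelled libraries, against 77.6 to 345 CPM in other epithelial barcodes. Of 11 apical genes 8 were more than 2-fold higher everywhere, and the microvillus proteins Vil1 and Ezr were not, with median log2 ratios of -0.72 and -1.34. Siglecf, a sialic-acid-binding lectin, and Cd300lf, the receptor that murine norovirus uses to enter tuft cells, ranged from 109 to 316 and from 108 to 412 CPM. Epcam, carried by all epithelial cells, differed little (median log2 ratio 0.12).

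**Figure D2:**
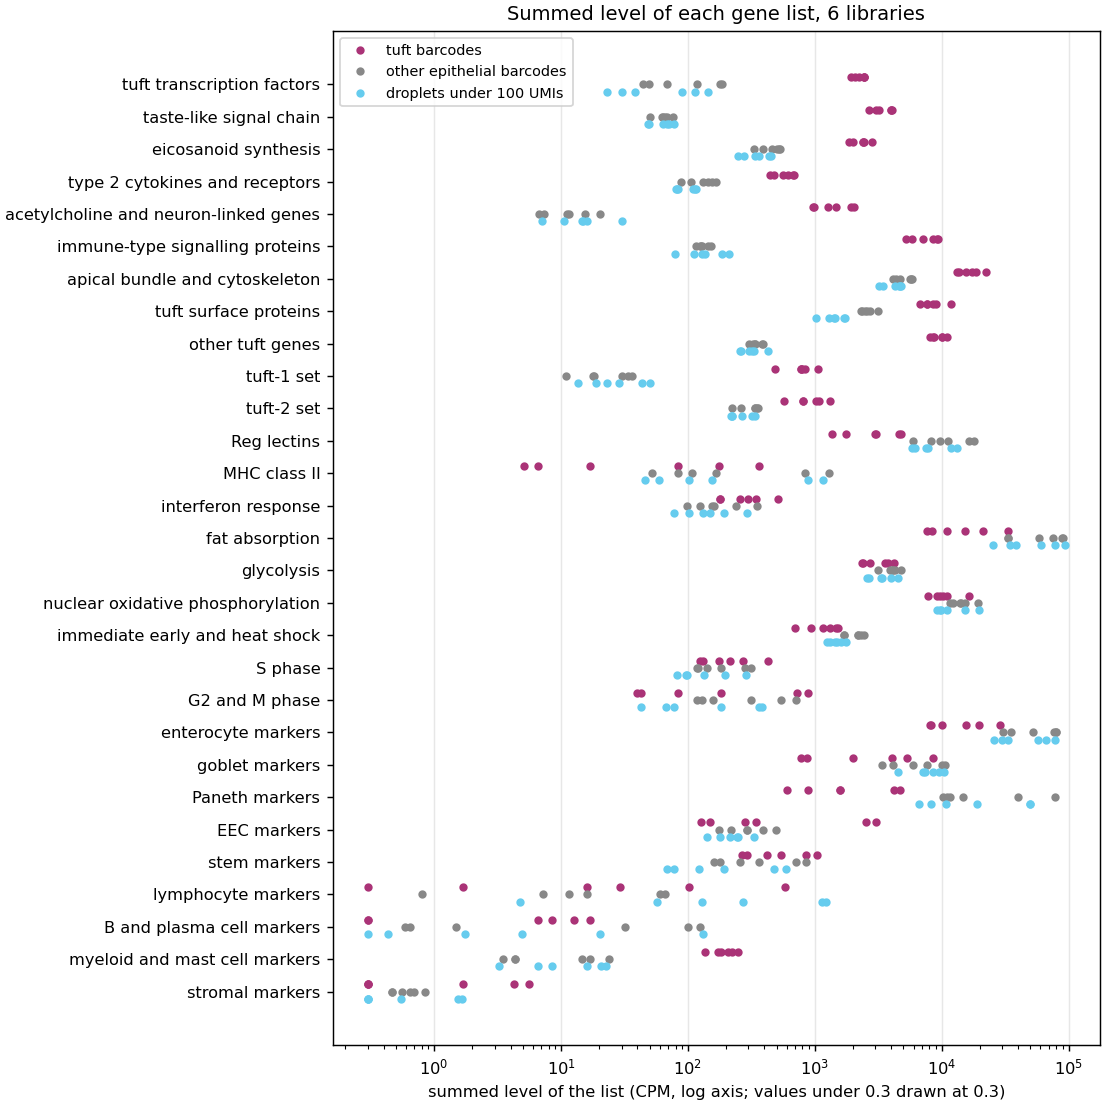
Each row is a gene list and each point the summed CPM of that list on a log axis in 1 of the 6 libraries, for tuft barcodes, other epithelial barcodes and droplets with fewer than 100 UMIs, which carry cell-free RNA. The 9 lists of tuft genes at the top lie above both other groups in all libraries, while the enterocyte, Paneth and Reg lectin lists lie at or below them.

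Outside the lists, the 15 genes with the highest lowest log2 ratio over the 6 libraries were Dgki, Adcy5, Folr1, Pcdh20, Gprc5c, Tmem229a, Ahnak2, Mcub, Kcnd3, Col15a1, Tmem121, Dnah6, Serpini1, Tspan6 and Smpx. Dgki, a diacylglycerol kinase, had log2 ratios of 9.50 to 11.33, Adcy5, an adenylyl cyclase, 9.48 to 11.52 and Folr1, a folate receptor, 9.27 to 11.44. Other barcodes held under 3 UMIs behind 24 of the 90 ratios, where 3 were put in their place, so the order among the 15 is not read. Adcy5 was at 96.1, 99.4 and 102 CPM in the crypt-labelled and 93.4, 76.0 and 57.1 CPM in the villus-labelled libraries, a level that differed little except in HFD VSG villus-labelled cells.

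Published work divides tuft cells into a neuron-like tuft-1 and an immune-like tuft-2 state. The tuft-1 genes (Nradd, Nrep, Ninj1, Plekhg5, Gng13 and Rgs2) summed to 489, 778 and 777 CPM in the crypt-labelled and 836, 1065 and 794 CPM in the villus-labelled libraries, against 10.9 to 36.2 CPM in other epithelial barcodes. The tuft-2 genes (Ptprc, Rac2, Ptgs1, Irf7, Ffar3, Tslp and Mgst2) summed to 1017, 1077 and 1319 CPM and to 569, 801 and 813 CPM, against 224 to 355 CPM in other epithelial barcodes and 218 to 338 CPM in cell-free droplets. Barcodes with at least 1 UMI numbered 222 of 252 for the first list, 237 for the second and 211 for both, and these counts assign no cell to a state. Of 7 stem cell markers, Lgr5 and Smoc2 were higher in tuft than in other epithelial barcodes in every library, Lgr5 at 25.2 to 99.4 CPM against 2.58 to 13.5 CPM, and Olfm4 was not, with log2 ratios from -1.95 to 2.20 and a median of -0.82. A small subset held transcripts of dividing cells. At least 5 UMIs of a list of 12 G2 and M phase genes were found in 5 of 74, 4 of 75 and 6 of 29 villus-labelled tuft barcodes, in the order LFD sham, HFD sham and HFD VSG, and in 0 of the 74 crypt-labelled ones, where 0 allows a share of up to 4.05%. In 153 of 252 barcodes no UMI of those genes was found.

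The crypt-labelled and villus-labelled tuft cells were compared across the 3 pools with edgeR's quasi-likelihood test on summed UMIs, with the pool as a block. The tests have 2 residual degrees of freedom, and each library is 1 pool, so p-values measure the spread between these libraries. Of 5834 genes tested, 111 (1.9%) passed a Benjamini-Hochberg adjusted p of 0.05, 87 (1.49%) higher and 24 (0.411%) lower in the crypt-labelled cells, and 1008 had an unadjusted p under 0.05. Without the block for the pool 43 were called higher and 9 lower, without barcodes of another gate 26 and 6, without the LFD sham pair 98 and 82, and with each gene's leading barcode left out of each library 184 and 128. The groups did not overlap for 99 of the 111, but these genes were called in the same contrast. The share without overlap among all genes tested is not given. A lack of overlap, here and below, is therefore only a description and adds no support to a call. Among the 110 tuft-list genes other than the rule genes, 10 were called higher and 1 lower. The median log2 fold change of the 91 that were tested was 0.39, against -0.02 over all genes tested.

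Gnat3 was the tuft-list gene with the largest called difference. It stood at 124, 149 and 226 CPM in the crypt-labelled and at 32.1, 54.1 and 37.2 CPM in the villus-labelled libraries. In crypt-labelled HFD VSG cells 1 barcode held 26 of the 53 UMIs, and without each library's leading barcode the levels were 85.8, 107 and 121 against 26.8, 46.2 and 28.8 CPM, with a log2 fold change of 1.89, still called. With all barcodes the 3 crypt-labelled values lay above the 3 villus-labelled ones, with a log2 fold change of 2.10 ± 0.276 (SE, n = 3 pairs, edgeR adjusted p = 0.00367). At 2000 UMIs a barcode, 21.5%, 24.1% and 27.8% of crypt-labelled and 5.52%, 10.8% and 7.66% of villus-labelled tuft barcodes held a UMI of Gnat3, and before thinning 40.0%, 38.5% and 53.8% against 16.2%, 25.3% and 44.8%, where enterocyte-gate barcodes reached at most 0.0360%. Vmn2r26 and Rgs22, another regulator of G protein signalling, were also higher, by 1.60 (adjusted p = 0.0457) and 1.03 (adjusted p = 0.0457), each without overlap and each kept in 5 of 11 alternatives. Gng13, the gamma subunit that works with Gustducin in taste cells, was lower by edgeR's call (log2 fold change -1.10 ± 0.251, adjusted p = 0.0457), at 84.1, 99.4 and 201 against 176, 321 and 367 CPM. Its groups overlapped, although the villus-labelled value was higher in 3 of 3 pairs, and the call was kept in 4 of 11 alternatives. The chain's other tested genes, Rgs13, Plcb2, Itpr2, Itpr3, Ffar3 and Sucnr1, did not pass, with log2 fold changes from 0.05 to 1.39.

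Of 10 tuft surface genes tested, 3 were called higher in crypt-labelled tuft cells, where 1.49% of all genes tested were. Ptprc, the pan-leukocyte phosphatase CD45 (chromosome 1, 138062861 to 138175708), was at 260, 248 and 354 CPM in the crypt-labelled and 72.5, 96.3 and 108 CPM in the villus-labelled libraries. The groups did not overlap (log2 fold change 1.68 ± 0.234, n = 3 pairs, edgeR adjusted p = 0.00486). Cd300lf was at 412, 348 and 371 against 135, 194 and 108 CPM (1.48 ± 0.240, adjusted p = 0.0104), also apart. Siglecf was at 308, 282 and 316 against 109, 145 and 173 CPM (1.13 ± 0.249, adjusted p = 0.0443). Its groups were apart as well, but its call was kept in 7 of 11 alternatives only. The lymphocyte markers summed to 16.0, 0 and 580 CPM and to 29.3, 1.69 and 102 CPM in the same libraries. Their part in the Ptprc difference was not tested. The remaining 7 surface genes, Cd24a, Cd47, Epcam, Ly6g6f, Ly6g6d, Tmem176a and Tmem176b, did not pass.

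Matk, a kinase that silences Src-family kinases, was at 1101, 795 and 755 against 323, 379 and 345 CPM, with no overlap (log2 fold change 1.35 ± 0.243, edgeR adjusted p = 0.0171). It was the only call of 15 immune-type signalling genes tested, where 1.49% of all genes tested were called higher. All 15 had a positive log2 fold change (median 0.65), and Rac2 (0.98, adjusted p = 0.055) and Bmx (0.82, adjusted p = 0.0788) were next. Nrgn was at 1009, 497 and 1131 against 241, 264 and 424 CPM, apart again (1.52 ± 0.262, adjusted p = 0.0154). It was the one call among 7 acetylcholine and neuron-linked genes, beside the same 1.49% of all genes. A single call is not read as a result about its list. Il17rb was called higher (1.55 ± 0.323, adjusted p = 0.0327) although the groups overlapped: it was at 180, 49.7 and 154 against 58.5, 59.1 and 34.5 CPM, and higher in 2 of 3 pairs. Its call was lost in 5 of 11 alternatives. Irf7, the interferon-induced factor of the tuft-2 list, was at 160, 82.8 and 85.3 against 50.2, 49.0 and 35.9 CPM (1.37 ± 0.300, adjusted p = 0.0441), and its call was lost in 4 of 11 alternatives.

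None of 10 transcription factors, 8 eicosanoid genes, 11 apical genes and 14 other tuft genes passed the edgeR test. Only 1.9% of all genes tested did, so 0 calls in lists of this size lie near that share and are not read as a result. The median log2 fold change of the transcription factors was -0.00, with Pou2f3 at 0.01 ± 0.257 (adjusted p = 1), and that of the eicosanoid genes was 0.03. The apical genes had a positive log2 fold change in 11 of 11 (median 0.64), with Krt18 at 0.67 ± 0.205 (adjusted p = 0.113). At this number of libraries a miss does not show that the levels were equal.

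**Figure D3:**
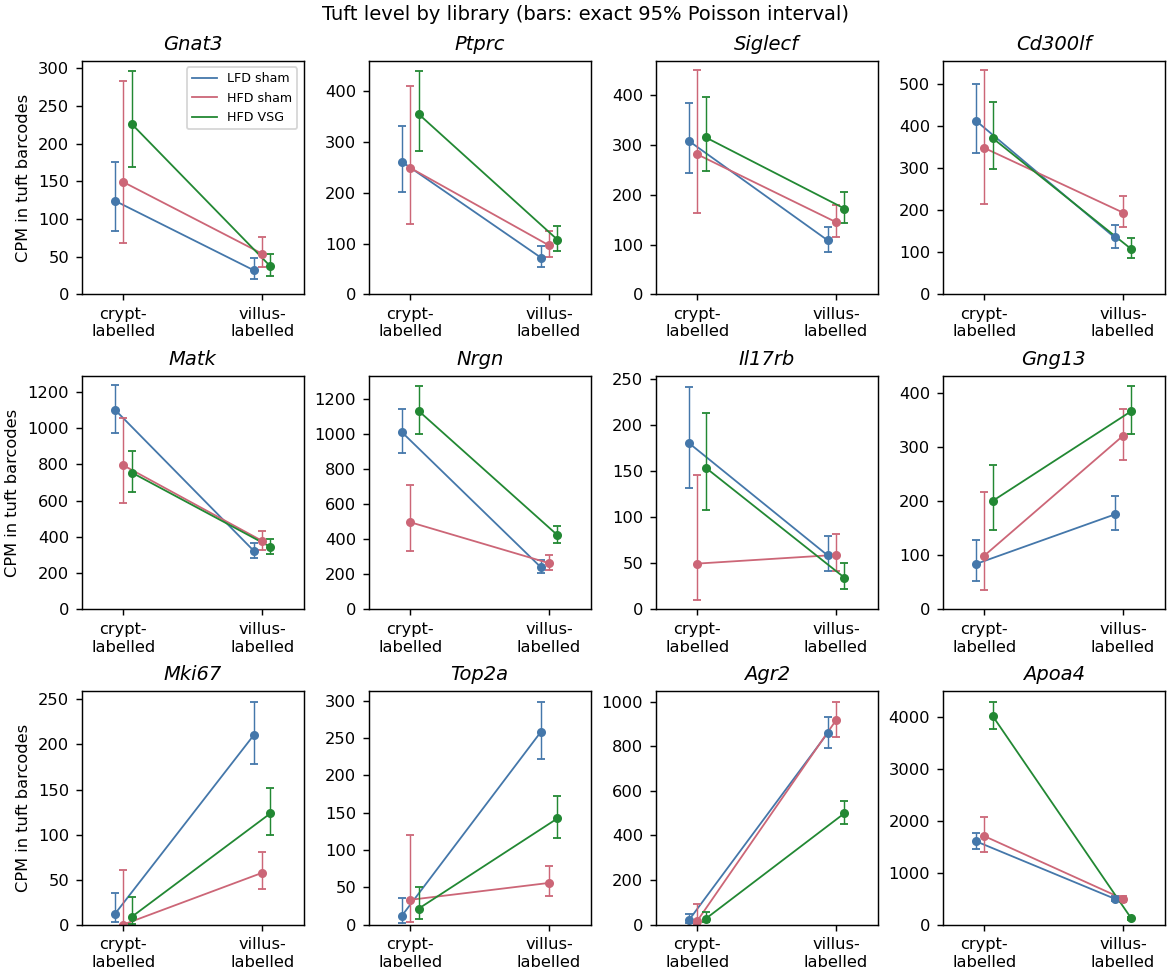
Each panel shows the CPM of 1 gene in tuft barcodes of the crypt-labelled and villus-labelled library of each pool, joined by a line, with exact 95% Poisson intervals of the counts as bars. Gnat3, Ptprc, Siglecf, Cd300lf, Matk, Nrgn and Apoa4 fall from crypt-labelled to villus-labelled in all 3 pools and Il17rb in 2 of 3, while Gng13, Mki67, Top2a and Agr2 rise in all 3.

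The genes with the most extreme called changes were not tuft genes. The 5 lowest in crypt-labelled cells were Agr2 (-4.97), Mki67 (-4.03), Spink4 (-4.01), Top2a (-3.22) and Dmbt1 (-3.21, and -1.69 and not called without members under 0.15% of the rule genes), and the 5 highest were Ada (3.86), Pmp22 (3.48), Cubn (3.00), Apoc2 (2.83) and Slc5a4b (2.82). Of these 5, Ada and Slc5a4b were not called without the HFD VSG pair (edgeR adjusted p = 0.0786 and 0.107), Cubn without the block for the pool (edgeR adjusted p = 0.0521) and Apoc2 with DESeq2 (adjusted p = 0.148). Ada, Pmp22 and Slc5a4b kept their calls in 5, 8 and 7 of 11 alternatives, and none of them could be tested without barcodes of another gate. Ada held 6, 7 and 30 UMIs in the crypt-labelled and 6, 4 and 1 in the villus-labelled libraries. Apoc2 was at 180, 282 and 1285 CPM in the crypt-labelled and 55.8, 137 and 29.2 CPM in the villus-labelled libraries, and without the HFD VSG pair its log2 fold change was 1.501, still called. Agr2, a disulphide isomerase that mucin-making cells need, was at 20.02, 16.6 and 25.6 CPM in the crypt-labelled and at 860, 918 and 500 CPM in the villus-labelled libraries. Single barcodes held 51.2%, 34.6% and 92.6% of the villus-labelled UMIs, and at 2000 UMIs a barcode Agr2 was detected in 3.17%, 1.92% and 7.95% against 14.4%, 20.5% and 13.3% of tuft barcodes. The groups were far apart in CPM (edgeR adjusted p = 1.25e-05), and cell-free droplets held 237, 148 and 278 against 881, 696 and 973 CPM in the same libraries. Mki67, a marker of dividing cells, was at 12.01, 0 and 8.53 against 210, 57.5 and 124 CPM (adjusted p = 0.000649), the 0 allowing up to 49.7 CPM. A few barcodes carried it. In villus-labelled LFD sham cells 4 of 74 barcodes, of 37489 to 42156 UMIs each, held 141 of its 151 UMIs and 168 of the 185 of Top2a, and 3 of them had under 0.15% of their UMIs in the rule genes. Without the 4 leading barcodes of each library the villus-labelled Mki67 levels were 17.9, 9.30 and 24.9 CPM. Without all members under 0.15% they were 99.8, 60.0 and 133 CPM, and the log2 fold change was -3.69, still called.

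Genes of other cell types moved with the fraction. Of 10 enterocyte markers tested 9 were called higher in crypt-labelled tuft cells, and of 11 fat absorption genes 7, among them Apoa4 at 1606, 1706 and 4024 against 498, 495 and 118 CPM (2.79 ± 0.499, edgeR adjusted p = 0.0167). Of 7 goblet markers 4 were called lower and 0 higher. Over all genes tested 1.49% were called higher and 0.411% lower. The enterocyte markers summed to 15679, 19594 and 28861 CPM in crypt-labelled and 8025, 10062 and 8221 CPM in villus-labelled tuft barcodes, which is 0.273, 0.295 and 0.371 and 0.311, 0.303 and 0.274 times their share in cell-free droplets of the same library. Goblet markers summed to 2010, 778 and 862 against 4041, 8479 and 5297 CPM. The part of free RNA or of mixed barcodes in these values was not tested beyond 1 alternative: without the barcodes that met another gate, 26 genes were called higher and 6 lower, Gnat3, Ptprc, Cd300lf and Nrgn among them, while Matk (adjusted p = 0.0666), Siglecf (0.205), Il17rb (0.0743), Rgs22 (0.174), Vmn2r26 (0.197) and Gng13 (0.261) were not. Cell-free droplets held at most 0.219 CPM of Gnat3 and 1.502 CPM of Siglecf.

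For diet and surgery, tuft CPM of 2 libraries were set side by side within a fraction as a log2 ratio with an exact conditional binomial interval, with no test, since each group is 1 library. Genes averaging 20 or more UMIs over the 3 libraries were used, and a ratio beyond 1 on the log2 scale was counted. Between HFD sham and LFD sham, 12.6% of 1474 genes passed that size in crypt-labelled tuft cells, 3.66% upward and 8.89% downward, and 2.69% of 5050 in villus-labelled ones, 1.31% upward and 1.39% downward. The medians of the 9 tuft lists other than the rule genes lay between 0.00 and 0.37 in the villus-labelled and between -0.71 and 0.31 in the crypt-labelled cells.

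In the villus-labelled libraries, which held more tuft cells, the taste-like genes had a median of 0.25 with 1 of 10 past the size, and the surface proteins 0.37 with 0 of 10, against 0.02 over all genes. Gng13 had a log2 ratio of 0.87 (0.54 to 1.21) and Alox5ap of 0.53 (0.32 to 0.73), and in the crypt-labelled cells Alox5ap also had 0.53 (0.01 to 1.02). Dclk1 had 0.50 (0.38 to 0.62) and 0.07 (-0.27 to 0.39), a rule gene given only as a description.

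Of 1469 genes measured in both fractions, 0 were past the size upward and 5 (0.34%) downward in both between HFD sham and LFD sham. They were Chgb, Chga, Olfm4, Serinc3 and Slc5a1, of which Serinc3 (-0.81) and Slc5a1 (-0.37) were no longer past it in villus-labelled cells without members under 0.15% of the rule genes. The enteroendocrine granins Chgb and Chga rested on single barcodes, since 3 of the 252 tuft barcodes held at least 10 UMIs of Chgb, 2 in LFD sham crypt-labelled and 1 in LFD sham villus-labelled cells. Olfm4, a stem cell gene, was at 340 and 16.6 CPM in crypt-labelled LFD sham and HFD sham cells, the latter from 1 UMI (interval of the log2 ratio -9.68 to -1.84) and the former from 4 of 35 barcodes, 1 of which held 63.5% of the UMIs, and at 484 and 112 CPM in villus-labelled ones (-2.12, -2.52 to -1.73). With at most 10% mitochondrial UMIs the crypt-labelled ratio came out at 0.71. There the HFD sham count of at most 1 UMI was raised to 3, so the sign of this Olfm4 ratio is not read. Other epithelial barcodes had 0.39 and -1.44. Serinc3, a membrane protein, had -1.18 and -1.02, and its crypt-labelled interval included 0 (-2.87 to 0.14). Slc5a1, the glucose transporter of the brush border, was at 701 and 265 and at 436 and 218 CPM (-1.40, -2.24 to -0.66, and -1.001, -1.31 to -0.70). In other epithelial barcodes the Slc5a1 ratio was -0.92 in the crypt-labelled and -0.43 in the villus-labelled libraries. Cell-free droplets of LFD sham and HFD sham held 2285 and 1151 CPM of Slc5a1 in the crypt-labelled and 1158 and 572 CPM in the villus-labelled libraries. These levels were above the tuft levels and also lower in HFD sham, and the part of free RNA in the tuft ratios was not tested.

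Between HFD VSG and HFD sham, 8 of the 9 tuft lists had a negative median in villus-labelled tuft cells and 7 of the 9 a positive one in crypt-labelled cells; the difference between the fractions was not tested. In villus-labelled cells 12.8% of 5050 genes were past the size, 3.74% upward and 9.05% downward, with a median of -0.13, and in crypt-labelled cells 13.4% of 1474, 10.5% upward and 2.85% downward, with a median of 0.21. With median-of-ratios scaling the villus-labelled counts turned from 189 upward and 457 downward to 403 and 275, and the 8 negative list medians stayed negative. In villus-labelled cells the taste-like chain had a median log2 ratio of -0.79 with 4 of 10 genes past the size, all downward: Itpr3 (-1.90), Plcb2 (-1.55), Vmn2r26 (-1.45) and Itpr2 (-1.41). In crypt-labelled cells its median was -0.06 over 6 genes. In other epithelial barcodes, where the chain sums to at most 76.2 CPM, its medians were -0.78 in villus-labelled and 0.24 in crypt-labelled libraries. The immune-type signalling genes had -0.51 with 2 of 15 past the size (Plcg2 -1.41 and Csk -1.27), against -0.07 in crypt-labelled cells and 0.31 in villus-labelled other epithelial barcodes. The acetylcholine and neuron-linked genes had -0.67 with 3 of 7 (Nrep -2.63, Chat -1.25 and Map1a -1.12), against 0.38. Surface proteins had 0.09 with 0 of 10, and the eicosanoid genes -0.39 with 0 of 8, of which Alox5ap (0.22, 0.04 to 0.40) and Ltc4s (0.49, 0.26 to 0.73) had positive ratios.

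The rule genes chose the barcodes, so their values are a description that supports nothing. In villus-labelled HFD VSG against HFD sham cells, Dclk1, Trpm5, Avil and Sh2d6 had log2 ratios of -0.88, -0.69, -0.66 and -0.58, and the median share of these 4 genes in a barcode was 0.315% in HFD VSG, against 0.614% in HFD sham and 0.448% in LFD sham. Barcodes of that library were also the deepest, and 6 of 29 held at least 5 UMIs of the G2 and M phase genes of dividing cells. The part of depth or of dividing cells in the levels of this library was not tested. The same library differed outside the tuft lists: Paneth markers had a median of -2.96 and goblet markers of -1.31, against -1.54 and -0.31 in other epithelial barcodes. With free RNA subtracted the Paneth median came out at 1.66. The summed Paneth markers of villus-labelled HFD sham tuft cells were at 0.0957 times their share in cell-free droplets. The fraction of free RNA that the study estimated for that library, which was subtracted, is larger. The subtraction thus exceeded the summed counts, so the sign of the 1.66 is not read. The nuclear genes of oxidative phosphorylation were higher in 20 of 20, with a median of 0.68, against 0.51 in other epithelial barcodes, and 2167 of all 5050 genes measured in these tuft cells were higher. In crypt-labelled tuft cells their median was 0.33, with 15 of 20 higher, where 969 of all 1474 genes were higher. The mitochondrially encoded genes went the other way, with 11 of 13 lower in each fraction. Their medians were -0.30 in villus-labelled and -0.15 in crypt-labelled tuft cells, against -0.13 and 0.21 over all genes. In other epithelial barcodes their medians were -0.54 and 0.05.

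**Figure D4:**
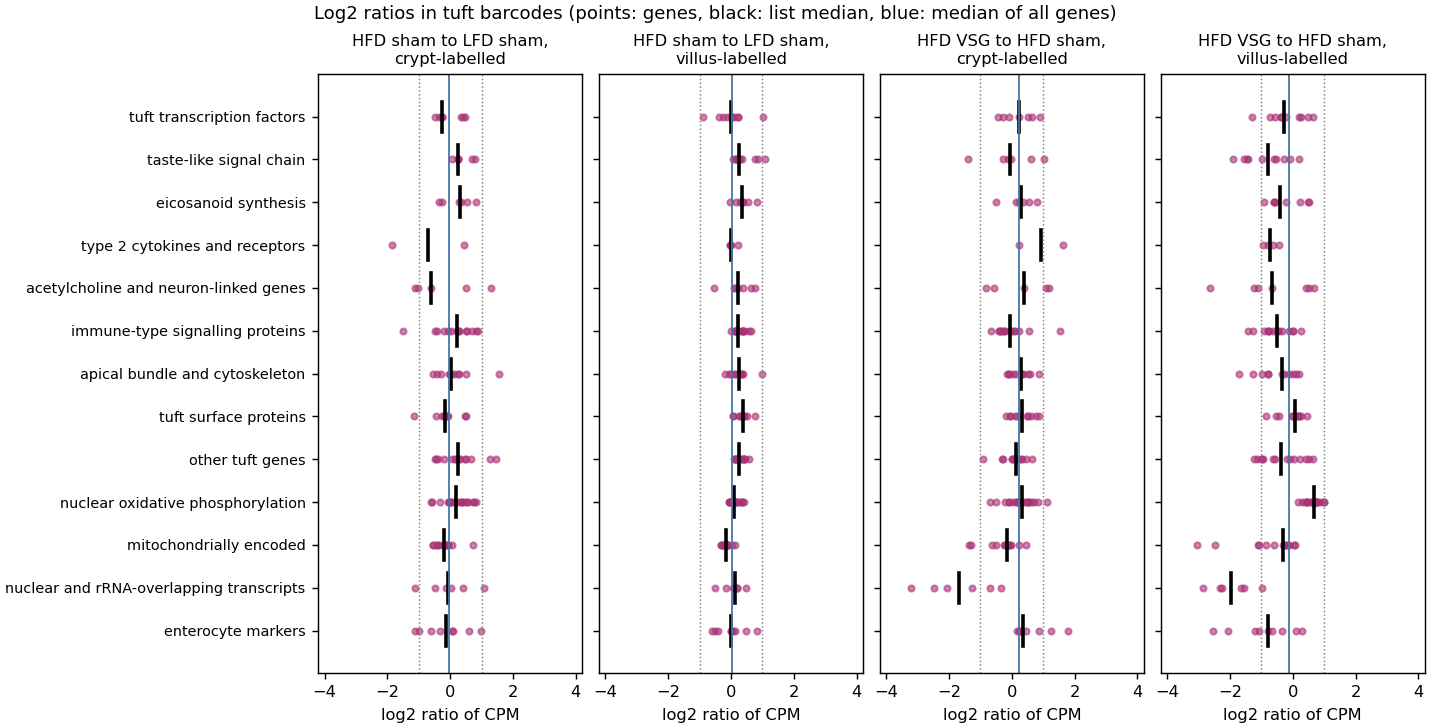
Points are genes of a list, placed by the log2 ratio of their CPM in tuft barcodes between 2 libraries, with the list median in black, the median of all genes in blue and dotted lines at -1 and 1. The taste-like chain and the acetylcholine list sit at medians of -0.79 and -0.67 in the villus-labelled HFD VSG to HFD sham panel and at -0.06 and 0.38 in the crypt-labelled one.

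Set against LFD sham, HFD VSG tuft cells had 6.11% of 1474 genes past the size in the crypt-labelled libraries, 4.21% upward and 1.9% downward, and 13.5% of 5050 in the villus-labelled ones, 4.46% upward and 9.09% downward. With median-of-ratios scaling the villus-labelled counts turned from 225 upward and 459 downward to 426 and 286. In villus-labelled cells Plcb2 (-1.39), Itpr2 (-1.25), Itpr3 (-1.82), Nrep (-1.86), Csk (-1.13), Eppk1 (-1.39) and the transcription factor Zfhx3 (-1.29) were among those past it downward. Gng13 (1.06), Tuba1a (1.17), Gfi1b (1.20) and Ethe1 (1.08) were past it upward. In crypt-labelled cells only Gng13 (1.25), Ptgs1 (1.04) and the alpha-tubulin Tuba1a (1.59) of the 9 tuft lists were past it, all upward. Gng13 and Tuba1a thus had higher levels in the HFD VSG than in the LFD sham library of both fractions, with intervals above 0 (0.48 to 2.07 and 0.75 to 1.38 for Gng13, 1.11 to 2.10 and 0.90 to 1.44 for Tuba1a). These intervals cover counting error only and not the spread between cells or mice. Both fractions of a group come from the same pool, so neither repeats the other.

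Between HFD VSG and HFD sham, Plcb2 was the one member of the 9 tuft lists past the size in both fractions in the same direction. This phospholipase, which turns the G protein signal into inositol trisphosphate (chromosome 2, 118707517 to 118728438), was at 296, 513 and 196 CPM in crypt-labelled and at 293, 326 and 112 CPM in villus-labelled tuft cells. HFD VSG was lowest in either fraction, with log2 ratios to HFD sham of -1.39 (-2.08 to -0.68) and -1.55 (-1.93 to -1.17), and to LFD sham of -0.59 (-1.16 to -0.04) and -1.39 (-1.77 to -1.02). It was 1 of 14 genes (0.953% of 1469) past the size downward in both, as was Dgki, a leading tuft gene outside the lists (-1.02, -2.14 to 0.18, and -1.82, -2.42 to -1.25). Other epithelial barcodes of HFD sham and HFD VSG held 0 and 3 UMIs of Dgki in the crypt-labelled and 8 and 9 in the villus-labelled libraries. No Dgki ratio is read there. The 5 lowest by the rule used for naming also held 4 transcripts that are not tuft genes: Gm42418 (-3.20 and -2.26), Lars2 (-2.47 and -2.30) and AY036118 (-2.07 and -1.66), which overlap ribosomal RNA or nuclear RNA sequence, and the mitochondrial mt-Atp8 (-1.38 and -3.05). With free RNA subtracted the crypt-labelled AY036118 ratio turned to 0.31. In other epithelial barcodes Gm42418 had log2 ratios of -2.21 and -2.43, while Plcb2 there had 0.64 and -0.03 at levels of at most 0.588 CPM.

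Upward, 3 genes (0.204%) passed the size in both fractions: Reg3g, Cst3 and Ppp1r14b. The protease inhibitor Cst3 had 1.54 (0.08 to 3.47) and 1.03 (0.64 to 1.44), the first from 4 UMIs in HFD sham cells and turning to -0.10 with at most 10% mitochondrial UMIs, and Ppp1r14b, a phosphatase inhibitor, had 1.02 (0.63 to 1.43) in villus-labelled cells (0.82 without members under 0.15% of the rule genes) but only 2 UMIs in crypt-labelled HFD sham cells (interval -0.03 to 5.06). Reg3g, a C-type lectin that kills Gram-positive bacteria and is mainly made by enterocytes and Paneth cells (chromosome 6, 78466269 to 78468872), was at 473, 348 and 1182 CPM in crypt-labelled and at 1430, 242 and 919 CPM in villus-labelled tuft cells. HFD sham was lowest in either fraction. The log2 ratios of HFD sham to LFD sham were -0.44 (-1.19 to 0.24) and -2.57 (-2.83 to -2.31), and those of HFD VSG to HFD sham were 1.76 (1.12 to 2.48) and 1.93 (1.67 to 2.20). Its neighbour Reg3b was at 1438, 1193 and 3376 and at 3280, 1036 and 1979 CPM. Other epithelial barcodes held more Reg3g in 5 of 6 libraries, at 3572, 1530 and 1130 and at 4199, 1435 and 1423 CPM, and there HFD VSG to HFD sham was -0.44 and -0.01.

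A few barcodes held most of the Reg3g and Reg3b in the VSG tuft cells. The leading barcode of the crypt-labelled HFD VSG library had 259 of its 277 Reg3g UMIs and also met the gate of another cell type. Without each library's leading barcode the levels were 371, 132 and 84.6 CPM in crypt-labelled cells. The log2 ratio of HFD VSG to HFD sham turned to -0.59 when the leading barcode's Reg3g UMIs were left out and the library totals kept. The same library had 667 of its 791 Reg3b UMIs in 1 barcode that met another gate, and without leading barcodes the Reg3b levels were 1151, 923 and 583 CPM, so that HFD VSG and not HFD sham was lowest for both genes in crypt-labelled cells. In the villus-labelled libraries the levels were 1081, 173 and 667 CPM without the leading barcodes, and the 3 highest barcodes held 49.8%, 68.5% and 85.4% of the UMIs. Of these 3 barcodes 2, 1 and 3 lay near the rule's percentage. In villus-labelled HFD VSG cells the 6 of 29 members with under 0.15% of their UMIs in the rule genes held 618 of 692 Reg3g UMIs. Without such members Reg3g was at 514, 348 and 83.4 CPM in the crypt-labelled and 855, 186 and 154 CPM in the villus-labelled libraries, and the log2 ratio of HFD VSG to HFD sham turned to -2.06 and -0.27. Reg3b was then at 1546, 1193 and 603 and at 1857, 1110 and 243 CPM, so that HFD VSG was lowest for both genes in both fractions. The median tuft barcode had 368, 0 and 67.1 CPM of Reg3g in the crypt-labelled and 375, 0 and 0 CPM in the villus-labelled libraries. Cell-free droplets held 2743, 1064 and 991 CPM in the crypt-labelled and 3410, 940 and 1356 CPM in the villus-labelled libraries, above those medians in all 6, and the part of free RNA in the tuft values was not tested. The Poisson intervals above do not carry this spread between cells. At 2000 UMIs a barcode, 58.2%, 24.8% and 21.9% of crypt-labelled and 56.9%, 17.9% and 22.4% of villus-labelled tuft barcodes held a UMI of Reg3g, against 64.7%, 54.1% and 53.4% and 79.4%, 59.5% and 70.4% of enterocyte-gate barcodes, so the tuft shares were below those of the cells that make it.

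Antigen presentation genes of MHC class II were highest in LFD sham tuft cells. Their sum in crypt-labelled HFD sham cells was not separated from that in LFD sham cells (82.8 against 176 CPM, log2 ratio -1.09, -2.78 to 0.24). Cd74, the invariant chain that guides class II molecules, was at 88.1, 33.1 and 8.53 CPM in crypt-labelled and at 177, 3.38 and 0 CPM in villus-labelled tuft cells, the 0 allowing up to 3.99 CPM. LFD sham was highest in either fraction, and the villus-labelled log2 ratio of HFD sham to LFD sham had an interval of -8.77 to -3.83, with 2 UMIs in HFD sham. Of the 14 tuft barcodes with at least 5 UMIs of the 7 class II genes, 2 came from the crypt-labelled and 12 from the villus-labelled LFD sham library. Other epithelial barcodes held more Cd74 and ran in the same order, at 599, 69.3 and 49.4 and at 406, 33.5 and 23.6 CPM. Cell-free droplets carried the class II genes in the LFD sham libraries too, at a summed 1171 and 879 CPM against 45.5 to 155 CPM elsewhere, and their part in the tuft values was not tested.

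**Figure D5:**
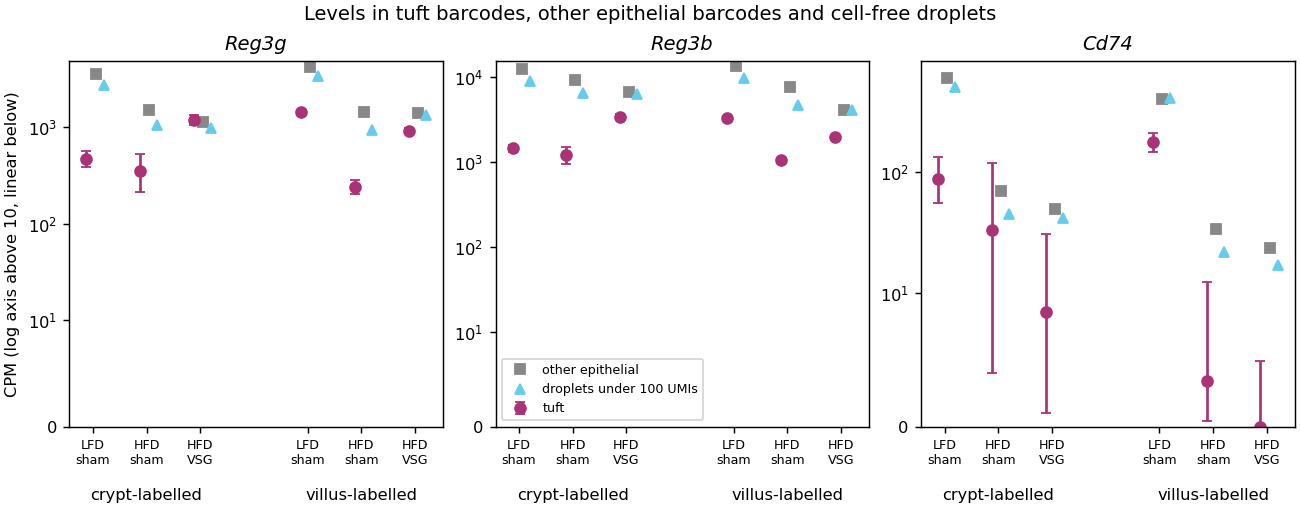
CPM of Reg3g, Reg3b and Cd74 by library in tuft barcodes (circles, with exact 95% Poisson intervals), other epithelial barcodes (squares) and cell-free droplets (triangles), on an axis that is logarithmic above 10 and linear below. HFD sham is the lowest tuft value of Reg3g and Reg3b in both fractions, but without members under 0.15% of the rule genes HFD VSG is (Reg3g 83.4 and 154 CPM, Reg3b 603 and 243 CPM), and Cd74 is highest in LFD sham in all 3 kinds of barcode.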

How the data were processed

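Single cells of the mouse jejunum were profiled with 10x 3′ v3.1 chemistry, which counts the 3′ ends of transcripts, so levels were not compared between genes. The authors made the deposited UMI counts per gene and barcode, raw and filtered, with Cell Ranger 6.0.0 on mm10 (per the labels and the submitters' processing notes). Their later steps, removal of free RNA with SoupX, of doublets with scDblFinder and clustering in Seurat, are not in these counts, and free RNA and doublets therefore remain. Passing barcodes came from the filtered matrices, and droplets with fewer than 100 UMIs in the raw matrices gave the profile of free RNA.

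Counts of the tuft barcodes were summed per library, from 60375 to 752733 UMIs. Each diet and surgery group is 1 library of pooled mice in each fraction, so those comparisons have no test: CPM carry exact Poisson intervals at 95%, log2 ratios exact conditional binomial intervals, and a group under 3 UMIs was raised to 3 before a ratio was taken. Crypt-labelled and villus-labelled libraries were compared with edgeR 4.0.16 in R 4.3.3 (TMM, filterByExpr, quasi-likelihood test, pool as a block, Benjamini-Hochberg adjustment), and DESeq2 1.42.0 was an alternative. The 2 libraries of a pool come from the same mice, which is where the pairing comes from. With 3 pairs no correlation of their deviations was tested. Levels and shares were computed in Python 3.11.15 with numpy 2.4.6, scipy 1.17.1 and pandas 2.3.3. The scripts were tested on simulated data. Gene positions are those of GENCODE on GRCm38.

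Genes were named as members of the lists, as the 15 genes outside the tuft lists with the highest lowest tuft-to-other ratio, as the 5 highest and 5 lowest of each comparison past the threshold (for diet and surgery, in both fractions), and Reg3g, which the study names for tuft cells, with its neighbour Reg3b. Members and lists were chosen with earlier results of these data known, and several list genes were picked by the study from these libraries, so no list is independent evidence. Olfm4, Alox5ap and other list members beyond the leading examples were chosen after their values were seen. Alternatives covered the rule's thresholds, free RNA, scaling, mitochondrial share, mixed barcodes, single dominant barcodes, members near the rule's percentage, depth, tools and leaving out each pool.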

Additional observations from a re-analysis of the deposited data

Results flagged for a closer look

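The following log2 ratios of CPM in tuft barcodes had opposite signs in the crypt-labelled and villus-labelled libraries, each past 1 in size; the difference between the fractions was not tested, since each value compares 2 libraries. Between HFD sham and LFD sham, the mucus genes Fcgbp and Muc2 had -1.89 and -2.37 in crypt-labelled and 1.42 and 1.43 in villus-labelled cells. Muc2, the gel-forming mucin of goblet cells, had at least 10 UMIs in 9 of the 252 tuft barcodes, 8 of them in villus-labelled libraries. Between HFD VSG and HFD sham, the apolipoproteins of chylomicrons Apoa4, Apoc2 and Apoc3 had 1.24, 2.19 and 1.301 in crypt-labelled and -2.07, -2.23 and -1.16 in villus-labelled cells. Chat, which makes acetylcholine and is the 1 tuft gene among these, had 1.09 in crypt-labelled and -1.25 in villus-labelled cells, from 4 UMIs in crypt-labelled HFD sham cells and with an interval there that includes 0 (-0.40 to 3.05).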

How the results depend on the processing

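The alternatives that leave lymphocyte-gate barcodes out of the denominator, take 6 nuclear and rRNA-overlapping transcripts out of the totals or weight each barcode equally, those that leave out members under 0.15% of the rule genes, and the crypt against villus comparison without leading barcodes were added after seeing the data. Of 54 tuft shares under alternatives 52 moved by less than their interval, and with at most 10% mitochondrial UMIs HFD VSG crypt-labelled rose to 1.08% and HFD sham villus-labelled to 2.44%. Of 1281 list medians 2 reversed: goblet markers, HFD sham to LFD sham, villus-labelled, to -0.48 without barcodes of another gate, and Paneth markers, HFD VSG to HFD sham, villus-labelled, to 1.66 with free RNA subtracted. In that HFD sham library the subtraction exceeded the summed Paneth counts, so the sign of the 1.66 is not read. Beyond this, the cause of the reversals and of the following changes was not tested.

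Named log2 ratios reversed in these cases. With at most 10% mitochondrial UMIs, crypt-labelled Olfm4 (HFD sham to LFD sham) went to 0.71 and crypt-labelled Cst3 and Reg3g (HFD VSG to HFD sham) to -0.10 and -1.17. HFD sham cells then held at most 1 UMI of Olfm4 and 1 of Reg3g, each raised to 3, so the signs of these ratios are not read. Without barcodes of another gate, crypt-labelled Reg3g went to -2.19, and Chga and Chgb (HFD sham to LFD sham) went to 1.99 and 1.99 in crypt-labelled and to 0.10 and 0.10 in villus-labelled cells. HFD sham cells held only 0 to 2 UMIs of Chga and Chgb in either fraction, raised to 3. Those values therefore reflect the floor and show no reversal in level. Without each gene's leading barcode, crypt-labelled Reg3g went to -0.59 and Chga to 2.05. The Chga value again reflects the floor, since HFD sham cells held 0 UMIs and 1 barcode held 99.3% of the 148 in LFD sham cells. With free RNA subtracted, crypt-labelled AY036118 went to 0.31. Without members under 0.15% of the rule genes, Reg3g (HFD VSG to HFD sham) went to -2.06 in crypt-labelled and -0.27 in villus-labelled cells.

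Counts of genes past the fold moved as follows, higher before lower. For HFD sham to LFD sham, crypt-labelled, 54 higher became 93 with free RNA subtracted, 29 with median-of-ratios scaling, 34 without barcodes of another gate, 15 without leading barcodes and 10 at a mean of 50 UMIs, and 131 lower became 37 with at most 10% mitochondrial UMIs and 25 at a mean of 50. For HFD VSG to HFD sham, crypt-labelled, 155 higher became 52 with at most 10% mitochondrial UMIs, 103 without the 6 transcripts and 29 at a mean of 50, and 42 lower became 79, 19, 12, 70 and 9 with free RNA subtracted, at most 10% mitochondrial UMIs, leading barcodes removed, the 6 transcripts removed and a mean of 50. For HFD VSG to LFD sham, crypt-labelled, 62 higher became 39 with median-of-ratios scaling, 34 without leading barcodes, 38 without the 6 transcripts and 18 at a mean of 50, and 28 lower became 17 without leading barcodes and 12 at a mean of 50. For HFD sham to LFD sham, villus-labelled, 66 higher became 121 with barcodes weighted equally and 11 at a mean of 50, and 70 lower became 19. For HFD VSG to HFD sham, villus-labelled, 189 higher became 403 with median-of-ratios scaling, 303 without barcodes of another gate, 124 without leading barcodes, 396 weighted equally and 84 at a mean of 50, and 457 lower became 275 with median-of-ratios scaling and 161 at a mean of 50. For HFD VSG to LFD sham, villus-labelled, 225 higher became 426 with median-of-ratios scaling, 130 with at most 10% mitochondrial UMIs, 139 without leading barcodes, 530 weighted equally and 99 at a mean of 50, and 459 lower became 286 and 155.

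For crypt label against villus label, 87 genes higher and 24 lower became 43 and 9 with no replicate block, where the pairing by pool is ignored, 50 and 15 with DESeq2, 187 and 239 with no filter on low counts, 26 and 6 without barcodes of another gate, and 184 and 128 without leading barcodes, and the higher count became 139 without members under 0.15%. With at most 10% mitochondrial UMIs the lower count became 82. Leaving out 1 pool gave 68 to 109 higher and 17 to 82 lower, the 82 without the LFD sham pair and the 43 lower without the HFD sham pair. Gnat3, Ptprc, Cd300lf, Nrgn and Agr2 kept their calls in 11 of 11 alternatives. Depth limits the crypt-labelled comparisons most, where HFD sham tuft cells held 60375 UMIs from 13 barcodes.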
